A study of Mus musculus with 3 samples.

Results

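Healing back skin of mice was compared between day 14 and day 12 after wounding, as the log2 expression value of each gene on the day 14 array minus its value on the day 12 array. The animals were C57Bl/6 mice, an inbred laboratory strain, aged 6 weeks, and each carried a large excision wound on the back, 1.5 cm2 in area and through epidermis and dermis. Wound dermis with any epidermis covering it was dissected, and per the labels the unwounded skin around it and the follicles at its edge were avoided. All groups shared this strain, age and wound, and differed by the day of collection. Tissue of 3 mice was pooled for each day and hybridised to 1 array, so that 2 of the study's 3 arrays enter the comparison and the day 10 array is given beside them. Genes were taken from probe sets (the groups of oligonucleotides that report a transcript) with a single gene symbol, averaged per symbol. Kept were the 9969 of 19938 genes whose highest value over the 3 arrays reached the median of that quantity, 8.36. Each day has 1 pooled array, so no difference has a replicate check, no p-value can be given, and the number of arrays limits the precision.

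A skin wound heals through overlapping phases. Neutrophils and monocytes are drawn in by chemokines and clear debris, keratinocytes close the surface, and fibroblasts and myofibroblasts fill and contract the gap before the new tissue is remodelled. As inflammation subsides, neutrophils are cleared, macrophages alter their state, and the stress proteins of migrating keratinocytes give way to those of normal cornification. In large wounds of mice, new hair follicles can form in the centre of the healed area.

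The array medians over 35556 probe sets were 7.53, 7.55 and 7.53 on days 10, 12 and 14. Among the 9969 genes, 2478 (24.9%) were higher on day 14 than on day 12, 5017 (50.3%) were lower and 2474 (24.8%) had exactly equal values, so a difference of 0 is not a precise measurement of no difference. The median difference over these genes was -0.0012, and the 5th and 95th percentiles were -0.31 and 0.19. Defining genes of the labelled tissue were present on each array: Krt5 and Krt14 of the basal epidermis stood at 13.2 to 13.3, and Col1a1 of fibroblasts at 13.48 to 13.49. Adipoq of adipocytes was below the level filter at 5.74 to 5.76, as was the muscle gene Myh4 at 6.07 to 6.25. However, 7 of 15 measured adipocyte genes and 3 of 28 skeletal muscle genes passed the filter.

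The genes that differed most included the CXC chemokine genes Cxcl3, Cxcl2 and Ppbp, the neutrophil collagenase gene Mmp8, the stromelysin gene Mmp10 and the envelope gene Lce3a, all lower on day 14 than on day 12. Increases were fewer and smaller. Among the largest were those of the hair follicle keratin genes Krt71 (1.33) and Krt25 (1.10). The clock genes Dbp (0.85) and Per3 (0.79) were also among the largest increases but did not reach 2-fold. At least 2-fold lower were 36 of the 9969 genes (0.361%), and at least 2-fold higher were 3 (0.0301%). At 1.5-fold the counts were 119 lower (1.19%) and 32 higher (0.321%). The members nearest the 2-fold limit were Scd3 and Tnfrsf9, both at -1.01, while Hmox1 at -0.99 and Pf4 at -0.98 lay just short of it. At the level filter, Naip5 at 8.35858 was kept and Trpc1 at 8.3585 was not. A gene could pass by a single day, and 334 did so, 194 by day 10, 31 by day 12 and 109 by day 14. Among the 36 genes at least 2-fold lower, Cxcl3, Mmp8, Nos2, Uty, Scd3 and AA467197 were kept by their day 12 value alone, the day on which they are high, and Clec2e and Cxcl5 by day 10 alone. Of the 3 higher genes, Krt71 and Krt25 were kept by day 14 alone. Probe sets of the same gene, of which 627 genes had several, deviated from their gene's mean difference by a median of 0.023 and by 0.169 at the 95th percentile. This is spread within the arrays and not between animals.

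**Figure D1:**
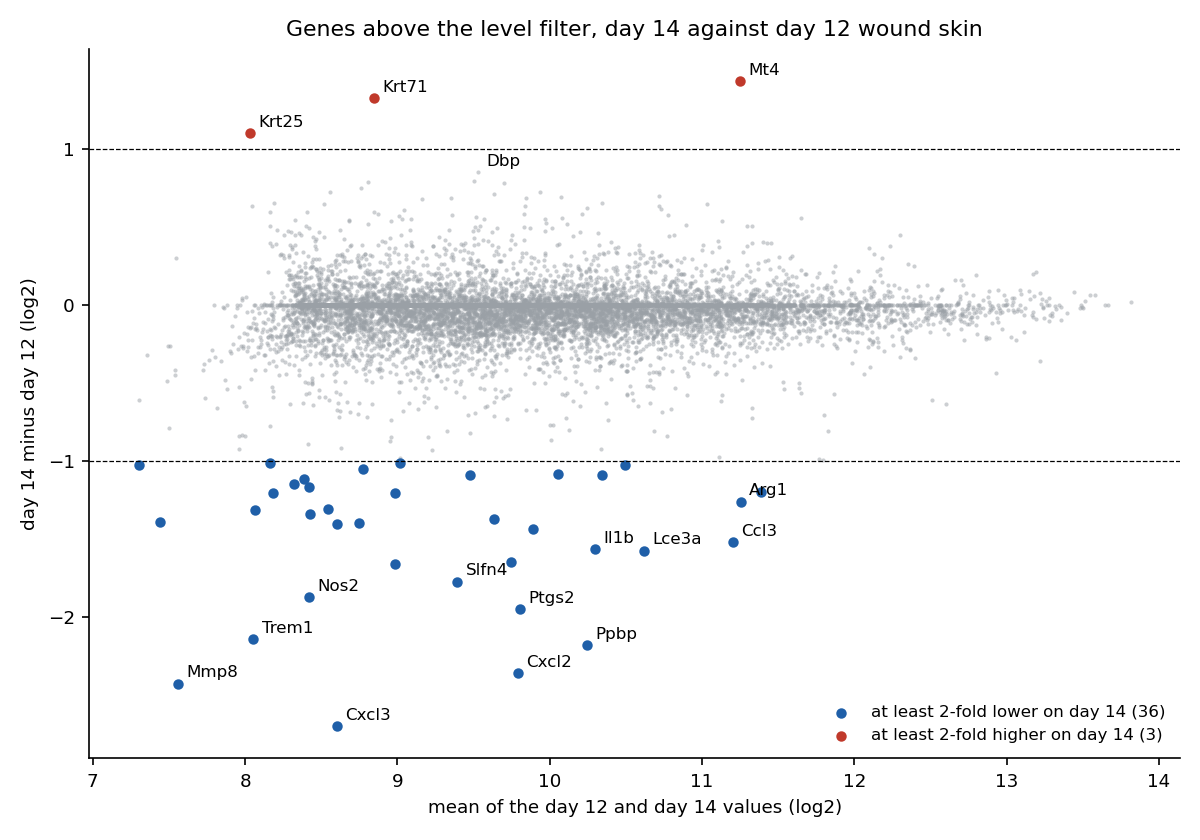
Difference between day 14 and day 12 (log2, vertical axis) against the mean of both values (log2, horizontal axis) for each of the 9969 genes above the level filter. Blue points are the 36 genes at least 2-fold lower and red points the 3 at least 2-fold higher, and dashed lines mark 2-fold. The largest decreases, Cxcl3 and Mmp8, lie at -2.70 and -2.42, while the largest increase, Mt4, lies at 1.44.

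**Figure D2:**
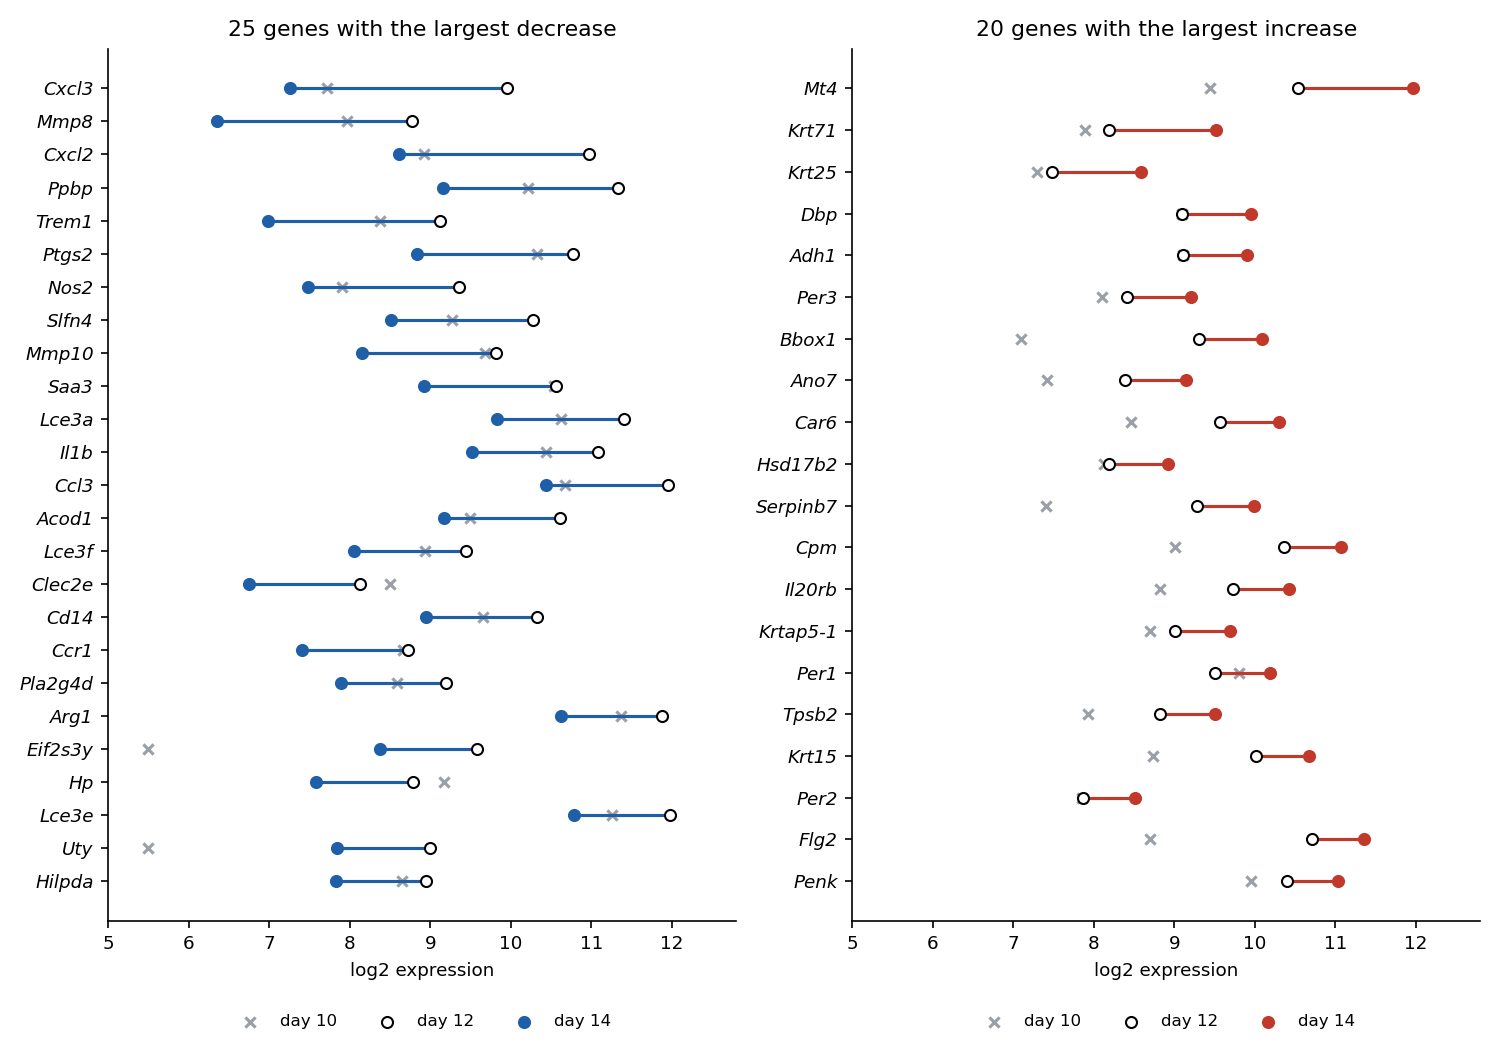
Log2 expression (horizontal axis) of the 25 genes with the largest decrease (left) and the 20 with the largest increase (right), 1 array per day. Crosses are day 10, open circles day 12 and filled circles day 14. On the left, Clec2e and Hp were highest on day 10 and Eif2s3y and Uty were far below both later days, while Cxcl3, Cxcl2 and Ccl3 were high on day 12 and lower on both days beside it.

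Of the CXC chemokine genes that attract neutrophils, 4 differed by 2-fold or more, all lower on day 14, and Cxcl3 had the largest difference of all genes above the filter. Cxcl3 stood at 7.71 on day 10, 9.95 on day 12 and 7.25 on day 14, which is 6.48-fold lower on day 14 than on day 12, and it passed the filter only by its day 12 value. Cxcl2 stood at 8.92, 10.97 and 8.61 on the same days, 5.13-fold lower on day 14. Ppbp, which encodes a CXC chemokine precursor stored in platelets and also made by myeloid cells, stood at 10.21, 11.34 and 9.16, 4.52-fold lower. Cxcl3, Cxcl2 and Ppbp were each highest on day 12 and lowest on day 14. Cxcl5, an attractant made by epithelial and stromal cells, was 8.92, 7.81 and 6.79, 2.03-fold lower, and it passed the filter only by its day 10 value. Cxcl1, the close relative of Cxcl2, was listed at 7.57 on all 3 days, below the filter, and Cxcl15 at 5.18 on all of them. Of the receptors for these ligands, Cxcr2 was 9.51, 9.85 and 9.39, a difference of -0.46, and Cxcr1 was below the filter at 6.82, 6.91 and 7.18. In this list of ligands and receptors, 5 of 8 measured genes passed the filter, 5 were lower and 4 of these by 2-fold or more. The median of these 5, which includes genes kept by 1 day alone, was -2.18, beside -0.0012 over all genes above the filter, and it was -0.74 over all 8 members with no filter.

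Cxcl2, Cxcl3, Cxcl5 and Ppbp lie in 1 gene cluster on mouse chromosome 5, with Cxcl1 in the same cluster. The windows before the starts of Cxcl3, Cxcl2 and Cxcl1 are shown because the same letters occur in each. Cxcl3 and Cxcl2 were lower on day 14, while Cxcl1 was below the filter with equal values, which do not measure a lack of difference. Sequences are RefSeq's for GRCm38.p6, each is 120 bases long and ends at the base before the annotated start, and all 3 lie on the plus strand, at chr5:90785981-90786100, chr5:90903779-90903898 and chr5:90891125-90891244. Capitals mark letters that match the NF-kB consensus, where matches on both strands that overlap are joined.
Cxcl3: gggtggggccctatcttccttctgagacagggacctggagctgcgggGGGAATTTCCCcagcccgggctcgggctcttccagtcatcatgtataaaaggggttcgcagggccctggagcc
Cxcl2: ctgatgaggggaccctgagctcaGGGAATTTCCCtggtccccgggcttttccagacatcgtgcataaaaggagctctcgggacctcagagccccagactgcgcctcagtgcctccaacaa
Cxcl1: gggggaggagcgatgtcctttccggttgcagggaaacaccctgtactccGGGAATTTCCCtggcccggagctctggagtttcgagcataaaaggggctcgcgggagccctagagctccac
The marked run is the same in each gene and its first base lies 73, 97 and 71 bases before the start. It is a match of letters and not a measured binding site. Over the 250 bases before the start, the consensus was matched in 7.25% of all 32851 windows, in 10.8% of the 7999 genes above the filter with an entry, and in 5 of 30 genes at least 2-fold lower with an entry. These 5 were Cxcl3, Cxcl2, Ccr1, Hilpda and Tnfrsf9. Of the 4 neutrophil-attracting chemokine genes with an entry, 3 had a match, and Ppbp, which was also lower on day 14, had none.

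Genes of neutrophil granules and surface receptors were mostly lower on day 14, but not the abundant calcium-binding proteins of these cells. Mmp8, the neutrophil collagenase, stood at 7.96 on day 10, 8.77 on day 12 and 6.35 on day 14, 5.37-fold lower, and passed the filter only by day 12. Trem1, a receptor that amplifies responses of neutrophils and monocytes, stood at 8.38, 9.12 and 6.98, 4.41-fold lower. Both were highest on day 12. The C-type lectin receptor genes Clec4e and Clec4d, which recognise microbial glycolipids, were 2.13-fold and 2.12-fold lower, and the related myeloid receptor gene Clec5a was 1.75-fold lower. Mmp9, another protease of neutrophils and of wound keratinocytes, was 12.07, 11.69 and 10.97, 1.65-fold lower. Itgam, the integrin chain CD11b, and Hdc, the enzyme that makes histamine, were 1.58-fold and 1.60-fold lower. By contrast, S100a8 was 11.13, 10.87 and 11.03 and S100a9 was 10.64, 10.33 and 10.30, so these genes were about level over the days. The neutrophil receptor gene Csf3r was 9.55, 9.55 and 9.39, whereas Ly6g, at 5.92, 5.87 and 5.81, and Retnlg, at 7.24, 7.24 and 7.13, were below the filter. Of 29 measured genes in the list, 15 passed the filter, and 14 of these (93.3%) were lower, beside 50.3% of all genes. Of the 15, 8 were lower by at least 1.5-fold, and their median was -0.65. Over all 29 genes the median was -0.09, and the list's mean level over days 10, 12 and 14 was 8.47, 8.66 and 8.29. In pooled tissue, fewer cells of a type and less RNA per cell cannot be told apart.

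Globin genes of red blood cells were lower on day 14 as well. The 4 globin probe sets, which are each annotated to several genes of their family and lie outside the gene counts, were named after their values were seen. The alpha-globin probe sets stood at 11.18 on day 10, 12.50 on day 12 and 10.45 on day 14 and at 11.17, 12.49 and 10.40, 4.15-fold and 4.25-fold lower, and the beta-globin probe sets at 11.29, 12.98 and 10.92 and at 11.29, 12.97 and 10.91, 4.18-fold and 4.17-fold lower. Hp, which encodes haptoglobin and clears free haemoglobin, was 9.17, 8.78 and 7.58, 2.30-fold lower, and it was highest on day 10. In the list of 6 other red cell genes, none passed the filter. Its mean level was 6.484, 6.595 and 6.555, with Alas2, which makes the first haem precursor, at 7.18, 7.91 and 7.23. Of 13 measured platelet genes, 2 passed the filter, Thbs1 at -0.61 and Itgb3 at -0.13, and the mean level was 7.83, 7.87 and 7.85. Defining platelet genes below it were Itga2b at 7.53, 7.71 and 8.03, Gp9 at 6.77 on each day and Treml1 at 8.09, 7.93 and 8.19. The part of blood in the lower neutrophil, Ppbp and Pf4 values was not tested.

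Among cytokines and their mediators, the decrease was uneven. Il1b, the interleukin 1 of activated myeloid cells, stood at 10.44 on day 10, 11.08 on day 12 and 9.52 on day 14, 2.95-fold lower. Il1a, the form that keratinocytes hold and release on damage, was 9.40, 10.54 and 10.46, a difference of -0.08. The other members of that family with the largest differences were Il33 at -0.39, Il18 at 0.22 and the inflammatory caspase Casp4 at -0.32, and the median over 16 of 21 genes was -0.02. Tnf was 7.94, 8.82 and 8.23, 1.50-fold lower, and passed only by day 12. Of 21 NF-kB inhibitor and target genes above the filter, 15 (71.4%) were lower, beside 50.3% of all genes. The largest difference among them was only that of Tnip3 at -0.45, and the median was -0.09. Tnfrsf9, the costimulatory receptor 4-1BB, was 8.89, 9.52 and 8.51, 2.02-fold lower.

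In the prostaglandin list, 8 of 11 genes above the filter (72.7%) were lower, beside 50.3% of all genes. The median was -0.11, and 1 gene was at least 1.5-fold lower. That gene, Ptgs2, the inducible cyclooxygenase, stood at 10.32, 10.78 and 8.83, 3.85-fold lower on day 14, and it was lowest on that day. Outside that list, Pla2g4d, a phospholipase A2 of keratinocytes that frees fatty acids from membranes, stood at 8.59, 9.20 and 7.89, 2.47-fold lower. Of the enzymes downstream of cyclooxygenase, Ptges differed by -0.19 and Tbxas1 by -0.38, and Hpgd, which breaks prostaglandins down, by 0.17. Nos2, the inducible nitric oxide synthase, was 7.90, 9.35 and 7.49, 3.65-fold lower, and passed the filter only by day 12. Arg1, the arginase that uses the same substrate, was 11.37, 11.88 and 10.63, 2.39-fold lower. Both enzymes of arginine were thus highest on day 12. Hmox1, which degrades haem, was 12.23, 12.29 and 11.30, 1.99-fold lower, and Odc1, the enzyme that starts polyamine synthesis, was 1.63-fold lower. Acod1, which makes itaconate in activated macrophages, was 9.49, 10.61 and 9.18, 2.70-fold lower. In the list on arginine, nitric oxide, haem and iron, 13 of 16 genes were lower and the median was -0.25.

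Other chemokine genes were mostly lower too. Ccl3 stood at 10.68 on day 10, 11.96 on day 12 and 10.44 on day 14, 2.86-fold lower, and its receptor gene Ccr1 at 8.66, 8.72 and 7.41, 2.48-fold lower. Ccl3 was raised on day 12 alone, while Ccr1 was near level until day 12. Pf4 was 11.96, 12.26 and 11.28, 1.98-fold lower. The monocyte attractant Ccl2 was 1.70-fold lower and the interferon-inducible Cxcl10 was 1.56-fold lower. Of 17 other chemokine genes above the filter, of 28 measured, 13 (76.5%) were lower, beside 50.3% of all genes. Their median was -0.42, or -0.07 with no filter. The 9 other chemokine receptors above the filter had a median of -0.08.

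Macrophage genes were lower as a list, by smaller sizes. Cd14, the co-receptor for bacterial lipopolysaccharide, stood at 9.66, 10.32 and 8.95, 2.58-fold lower. Msr1, a scavenger receptor, was 1.79-fold lower, the folate receptor Folr2 1.59-fold, the clotting factor gene F13a1 1.56-fold and Ms4a6d 1.53-fold. The genes that define the whole population differed less, with Adgre1 at -0.24, Cd68 at -0.21, C1qa at -0.20, Csf1r at -0.17 and Mrc1 at -0.08. Of 39 members above the filter, of 43 measured, 32 were lower (82.1%, beside 50.3% of all genes), 4 higher and 3 equal. Their median was -0.20, and 6 were at least 1.5-fold lower. Dendritic and Langerhans cell genes had a median of -0.02, with Cd209d at 0.45 and Ccl17 at -0.42 at the ends of the list. T cell genes had a median of 0.00 over 9 of 28 genes. In the mast cell list, the protease genes Tpsb2 and Mcpt4 were higher by 1.60-fold and 1.55-fold, while Hdc was lower and the median of the 8 members was 0.04.

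Interferon-stimulated genes, which cells switch on in response to type I and type II interferon, were lower nearly throughout. Of 37 members above the filter, of 45 measured, 33 were lower (89.2%, beside 50.3% of all genes), 1 was higher and 3 were equal. The median was -0.34, both with and without the level filter. Slfn4, a myeloid schlafen gene, stood at 9.28 on day 10, 10.28 on day 12 and 8.51 on day 14, 3.41-fold lower, and Slfn1 at 8.41, 8.86 and 7.97, 1.85-fold lower. Rsad2, which encodes the antiviral enzyme viperin, and Rtp4 were each 1.59-fold lower, and the interferon regulatory factor Irf7 was 9.72, 10.39 and 9.83, 1.48-fold lower. The exception was Psmb9, a subunit of the immunoproteasome, at 0.06. For most of the genes named here the day 14 value was near or below that of day 10. Schlafen genes are close copies of each other, so their probe signals may be shared.

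The window before Ifit1, which encodes a protein that binds viral RNA, is shown as an example of the interferon-stimulated response element. Ifit1 stood at 9.42, 9.90 and 9.37. The window is on the plus strand at chr19:34640769-34640888 of GRCm38.p6, and capitals mark matches to the element's consensus, which here read on the other strand.
Ifit1: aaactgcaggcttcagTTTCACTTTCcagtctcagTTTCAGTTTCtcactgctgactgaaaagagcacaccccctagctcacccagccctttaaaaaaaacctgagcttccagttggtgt
The first bases of the matches lie 104 and 85 bases before the start. On either strand of the 250 bases before the start, this motif was matched in 13 of 31 interferon-stimulated genes above the filter with an entry (41.9%), in 3.20% of all genes above the filter and in 2.98% of all windows.

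Of 27 matrix proteases and inhibitors above the filter, 19 (70.4%) were lower, 8 (29.6%) higher and none equal. Among all genes above the filter 50.3% were lower, 24.9% higher and 24.8% equal, so lower genes outnumbered higher ones there too. The median of the list was -0.09, and 5 members were at least 1.5-fold lower, beside 1.19% of all genes. Mmp10, the stromelysin 2 of migrating keratinocytes, stood at 9.68 on day 10, 9.81 on day 12 and 8.15 on day 14, 3.16-fold lower. Mmp3, stromelysin 1, stood at 9.79, 11.00 and 9.98, 2.03-fold lower. Mmp13, an interstitial collagenase, stood at 11.61, 11.60 and 10.62, 1.97-fold lower. Thus Mmp10 and Mmp13 were near level from day 10 to day 12, while Mmp3 was raised on day 12 alone. Adam8, a membrane protease of leukocytes, and Adamts4, an aggrecanase, were 1.75-fold and 1.59-fold lower. The gelatinase Mmp2 and its activator Mmp14 differed by -0.01 and -0.04, and Mmp12, the macrophage elastase, was 11.74, 12.58 and 12.54; these were chosen after their values were seen. The inhibitor Timp3 was 10.32, 11.20 and 11.60, higher by 0.41, and Mmp28, an epidermal protease, was higher by 0.38.

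Mmp3, Mmp10 and Mmp8 are neighbours in a protease gene cluster on mouse chromosome 9. Their windows are shown to compare the motif of AP-1, the factor formed by Fos and Jun proteins. All are on the plus strand of GRCm38.p6, Mmp10 at chr9:7502222-7502341, Mmp3 at chr9:7445702-7445821 and Mmp8 at chr9:7558309-7558428, and capitals mark TGANTCA.
Mmp10: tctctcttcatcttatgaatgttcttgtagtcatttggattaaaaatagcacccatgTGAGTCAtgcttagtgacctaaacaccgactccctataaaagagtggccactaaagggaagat
Mmp3: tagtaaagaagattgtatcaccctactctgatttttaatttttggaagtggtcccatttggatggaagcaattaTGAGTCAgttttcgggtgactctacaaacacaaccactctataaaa
Mmp8: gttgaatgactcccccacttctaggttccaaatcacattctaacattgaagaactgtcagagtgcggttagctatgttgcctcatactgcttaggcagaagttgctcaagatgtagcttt
The match begins 63 bases before the start of Mmp10 and 46 before that of Mmp3, and these letters are not in the window of Mmp8. In the 250 bases before the start they were matched in 9 of 30 genes at least 2-fold lower, in 6.05% of genes above the filter and in 6.75% of all windows. The 9 were Mmp10, Mmp3, Ppbp, Slfn4, Clec2e, AA467197, Hilpda, Sprr2f and Tnfrsf9. Fos itself stood at 8.64, 9.51 and 8.53, 1.97-fold lower on day 14, and Egr1 at 9.19, 9.96 and 9.41, 1.46-fold lower. Over 23 immediate early genes the median was -0.04.

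Cornified envelope genes of the epidermis split by family. The Lce3 genes, late cornified envelope genes that are induced by injury, were lower. Lce3a stood at 10.63 on day 10, 11.41 on day 12 and 9.83 on day 14, 2.97-fold lower, Lce3f was 2.63-fold lower, Lce3e 2.29-fold and Lce3c 1.75-fold. A further probe set annotated to 6 Lce3 genes stood at 12.31, 12.56 and 11.65, 1.88-fold lower. The Sprr2 genes, small proline-rich precursors of the envelope, were also lower, from Sprr2f at 10.02 and 8.93 on days 12 and 14 (2.13-fold lower) to Sprr2d at 12.47 and 12.20 (1.21-fold lower). All 7 Sprr2 genes above the filter, of 8 measured, were lower, with a median of -0.71, and the 4 Lce3 genes had a median of -1.30. The Lce1 genes of normal cornification had a median of 0.08, and 12 of 13 were higher, by 0.27 at most. Members of these families are close copies, and their probe signals may be shared, so values of single members are uncertain.

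Genes of intact epidermis were mostly higher by small amounts. Flg2, a relative of filaggrin in the cornified layer, stood at 8.70, 10.71 and 11.36, 1.57-fold higher on day 14 than on day 12. Involucrin (Ivl) was higher by 0.37 and loricrin (Lor) by 0.21. In that list, 31 of 39 genes (79.5%) were higher, beside 24.9% of all genes above the filter, and the median was 0.07. The stress keratins Krt6a, Krt16 and Krt17, made by keratinocytes after injury, differed by -0.06, -0.11 and -0.01, which is less than any Lce3 or Sprr2 gene above the filter. Krt6a was 12.79, 12.75 and 12.68. Over the 26 genes of injured epidermis, 23 were lower (88.5%, beside 50.3% of all genes). Their median was -0.27, and 10 were at least 1.5-fold lower. Krt15, a keratin of basal cells and of the follicle bulge, was 8.73, 10.02 and 10.67, 1.58-fold higher, against a median of 0.02 for 19 basal genes.

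**Figure D3:**
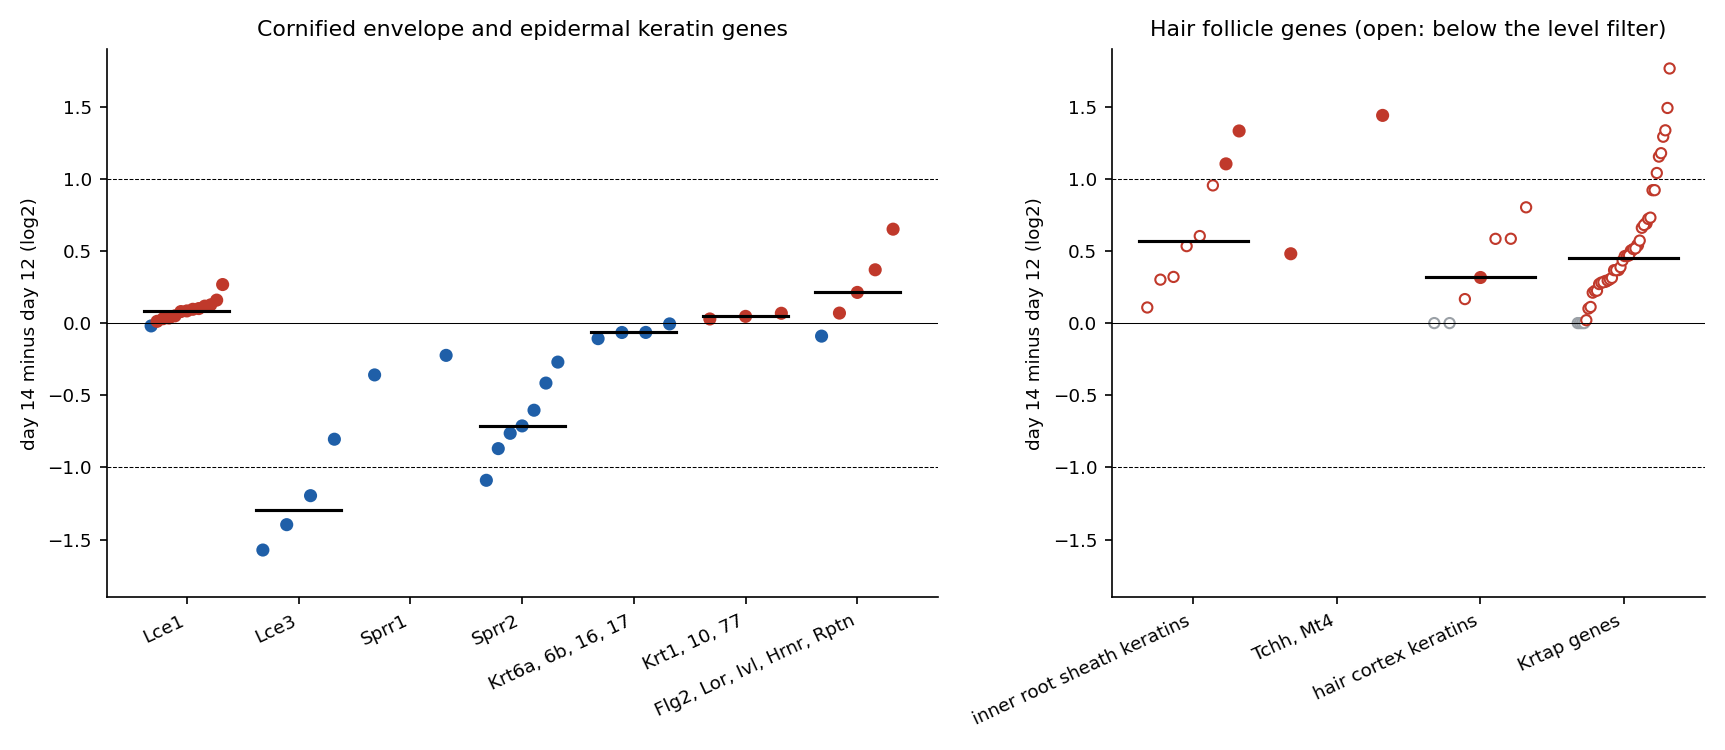
Difference between day 14 and day 12 (log2, vertical axis) for cornified envelope and epidermal keratin genes above the level filter (left) and for hair follicle genes on either side of the filter (right, open circles below it). Red points are higher, blue lower and grey equal, bars mark the median of groups over 2 genes, and dashed lines mark 2-fold. The Lce3 and Sprr2 points all lie below 0 beside Lce1 points near 0, and the Krtap points lie at or above 0.

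Genes of the inner root sheath and of the hair shaft were mostly higher on day 14, and most were below the level filter. The inner root sheath is the layer that guides the growing hair, and Krt25, Krt27, Krt71, Krt72 and Krt73 are keratins of it. Krt71 stood at 7.89 on day 10, 8.18 on day 12 and 9.51 on day 14, 2.52-fold higher. Krt25 stood at 7.29, 7.48 and 8.58, 2.15-fold higher. Both passed the filter only by day 14, so that they were counted because they were high on that day. Krt27 stood at 7.14, 7.20 and 8.16, 1.94-fold higher and below the filter, Krt73 was higher by 0.60, Krt72 by 0.53 and Krt28 by 0.30. Tchh, trichohyalin, which hardens the sheath, was 7.61, 8.04 and 8.52 and passed only by day 14. Mt4, a metallothionein of differentiating stratified epithelium, was 9.44, 10.53 and 11.97, 2.71-fold higher, while Mt1 and Mt2 differed by -0.16 and -0.03. In the list of inner root sheath and hair cuticle genes, which includes Mt4, 8 of 23 genes passed the filter. Their median was 0.40. Over all 23 genes the median was 0.30, with 19 higher and 1 lower. As Mt4 is not confined to the sheath, its value does not speak for the sheath alone. The mean level of the list was 7.34, 7.59 and 7.98 on the 3 days.

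The keratin-associated proteins (Krtap), which bind hair keratins into the fibre of the shaft, were higher as a family; they were singled out after their values were seen. Of 44 Krtap genes with probe sets of their own, 40 were higher, none was lower and 4 were equal, with a median of 0.45. Only 5 of the 44 passed the filter, among them Krtap5-1 at 8.692, 9.004 and 9.695, 1.61-fold higher. Below it, Krtap15 stood at 5.39, 5.58 and 7.34, 3.40-fold higher, and Krtap7-1 at 6.18, 6.64 and 8.13, 2.81-fold higher. Krtap19-5, Krtap8-1, Krtap4-1, Krtap3-3 and Krtap5-2 were 2.52-fold, 2.45-fold, 2.26-fold, 2.22-fold and 2.06-fold higher. These 7 genes stood at 5.05 to 6.90 on day 12. All 15 probe sets annotated to several genes with a Krtap gene among them were higher too, and 14 of them, with a median of 0.79, passed the filter. The probe set of Krtap6 genes stood at 8.83, 8.84 and 10.37, 2.89-fold higher, and that of Krtap4 genes at 8.63, 8.42 and 9.47, 2.06-fold higher. For these the difference lay between days 12 and 14 and hardly between days 10 and 12. Krtap genes are close copies, so the probe sets are not independent of each other. The share of higher genes over all genes without the filter was not counted, for Krtap genes or the other hair lists. With no filter the median over all 19938 genes was 0. At least 1.5-fold higher were 54 of them, and 14 of these 54 were among the 44 Krtap genes. Of 28 skeletal muscle genes with no filter, 18 were higher and 1 lower, with a median of 0.03. Of 28 T cell genes with no filter, 6 were higher and 10 lower, and of 29 neutrophil genes 5 and 18. Several other lists leaned higher with no filter, with medians of 0.04 to 0.10. Higher and lower were 9 and 1 of 13 melanocyte genes, 7 and 1 of 12 B cell genes and 10 and 2 of 15 adipocyte genes. The same counts were 11 and 2 of 15 nerve genes, 10 and 3 of 16 mast cell genes and 28 and 5 of 37 Wnt genes. More higher than lower genes was thus not particular to the hair lists.

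Keratins of the hair cortex were below the filter apart from Krt33b, at 8.46, 8.46 and 8.78. Krt33a was 6.44, 6.67 and 7.47, 1.74-fold higher, Krt31 was higher by 0.58, Krt86 by 0.58 and Krt34 by 0.17. Hoxc13 and Lef1, transcription factors of the hair matrix, had equal values on both days. Over 31 hair cortex and matrix genes, Krtap genes among them, 22 were higher and 2 lower, with a median of 0.32, and the mean level was 6.64, 6.75 and 7.20. Genes of melanocytes, the pigment cells of the hair bulb, were mostly below the filter, with 1 of 13 passing it, and Tyr was 5.52 on each day and Tyrp1 6.05, 6.16 and 6.58. Genes of the hair placode and follicle stem cells had a median of 0.02, with 9 of 16 higher, beside 24.9% of all genes above the filter. Fgf9 and Shh, which are needed early in follicle formation, were below the filter, with Fgf9 at 7.05, 7.12 and 7.25 and Shh at 7.10, 7.10 and 7.34.

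Genes of the circadian clock were higher on day 14 in 15 of 20 cases (75%), beside 24.9% of all genes above the filter. They were lower in 3 cases and equal in 2, with a median of 0.25. The clock runs as a loop in which Arntl and Clock proteins switch on the Per and Cry genes, whose products then block them, while Dbp, Tef and Hlf carry the rhythm to output genes. Dbp stood at 9.10 on day 10, 9.10 on day 12 and 9.95 on day 14, 1.81-fold higher. Per3 stood at 8.10, 8.41 and 9.20, 1.73-fold higher, Per1 at 9.80, 9.50 and 10.19, 1.61-fold higher, and Per2 at 7.85, 7.86 and 8.52, 1.58-fold higher. Each of these was highest on day 14, and Per2 passed the filter only by that day. Tef and Hlf were each higher by 0.48, and Ciart, a repressor of the Arntl and Clock pair, was 7.53, 7.87 and 8.46, with its 2 probe sets at 0.42 and 0.78, and likewise passed only by day 14. The difference in Arntl had the other sign, at 9.21, 9.21 and 8.77, or -0.44. Nr1d1, a repressor of Arntl, differed by 0.10 and Clock by -0.03. The labels used here give no hour of collection. Over all 23 measured clock genes the median was 0.13, and in the top 25% of genes by mean it was 0.10.

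**Figure D4:**
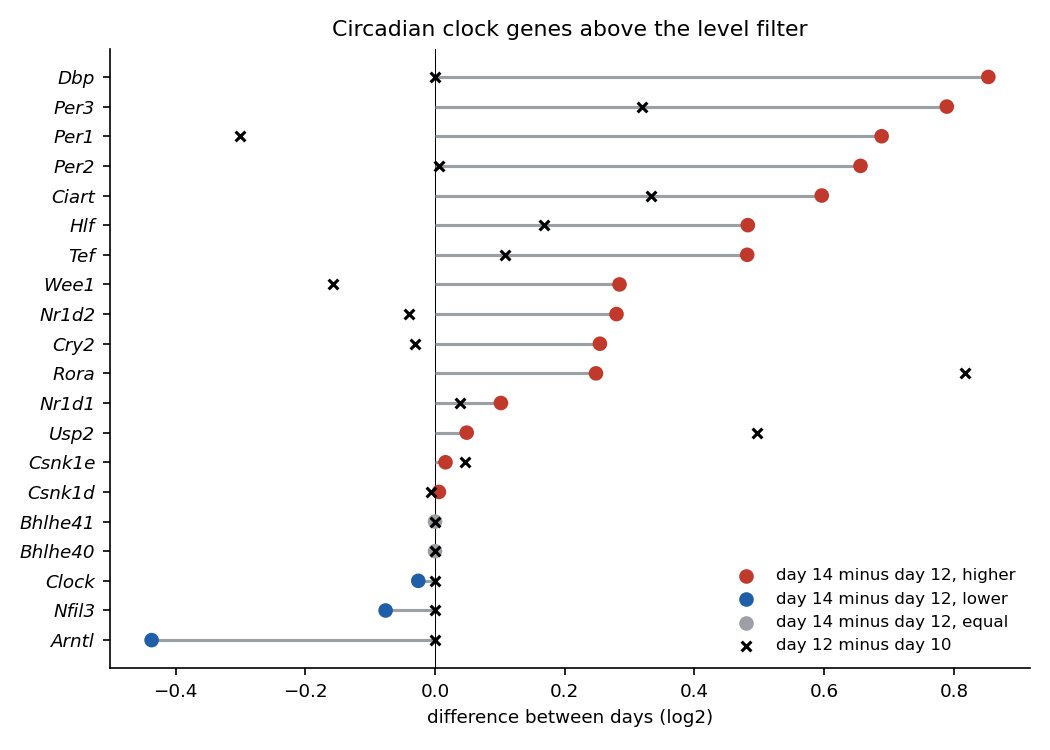
Differences between days (log2, horizontal axis) for the 20 circadian clock genes above the level filter. Filled circles are day 14 minus day 12 (red higher, blue lower, grey equal) and crosses day 12 minus day 10, and both use the same day 12 array. Dbp, Per3, Per1, Per2 and Ciart lie furthest to the right, from 0.85 to 0.60, and Arntl lies furthest to the left at -0.44.

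The windows before Per3, Ciart and Dbp are shown because the first and the second hold clock motifs and that of Dbp, the clock gene with the largest difference, holds neither. In Per3, on the minus strand at chr4:151044666-151044885 of GRCm38.p6 (220 bases), capitals mark the D-box TTANGTAA, which Dbp, Tef and Hlf proteins bind. In Ciart, on the minus strand at chr3:95882229-95882348, they mark the E-box CACGTG of Arntl and Clock. Dbp is on the plus strand at chr7:45705127-45705246.
Per3: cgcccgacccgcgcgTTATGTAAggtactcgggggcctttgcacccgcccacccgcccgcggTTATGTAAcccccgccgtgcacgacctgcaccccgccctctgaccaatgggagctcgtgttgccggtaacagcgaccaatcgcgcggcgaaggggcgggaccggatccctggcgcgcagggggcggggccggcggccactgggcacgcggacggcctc
Ciart: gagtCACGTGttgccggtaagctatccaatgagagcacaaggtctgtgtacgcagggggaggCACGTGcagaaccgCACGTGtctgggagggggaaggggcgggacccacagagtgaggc
Dbp: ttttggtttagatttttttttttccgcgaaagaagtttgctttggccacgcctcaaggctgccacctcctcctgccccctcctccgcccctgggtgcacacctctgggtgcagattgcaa
The D-box matches of Per3 begin 205 and 158 bases before the start and the E-box matches of Ciart 116, 58 and 44 bases before it. In the 250 bases before the start on either strand, the D-box was matched in 1 of 16 clock genes above the filter with an entry, and in 1.63% of all genes above the filter. The E-box was matched in 4 of the 16, namely Per1, Tef, Bhlhe41 and Ciart, and in 10.1% of all genes above the filter. A window without a match says only that these letters are not in it.

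The remaining genes among the 20 largest increases had varied roles. Adh1, an alcohol dehydrogenase that also oxidises retinol, stood at 9.11, 9.10 and 9.90, 1.74-fold higher, and Hsd17b2, which inactivates sex steroids, at 8.12, 8.19 and 8.92, 1.65-fold higher. Both were near level until day 12, and Hsd17b2 passed the filter only by day 14. In contrast, Bbox1, the last enzyme of carnitine synthesis, stood at 7.09, 9.31 and 10.10, 1.72-fold higher, Serpinb7, an epidermal protease inhibitor, at 7.41, 9.28 and 9.99, 1.64-fold higher, and Ano7, of the anoctamin family, at 7.42, 8.39 and 9.14, 1.69-fold higher. Car6, a secreted carbonic anhydrase, was 1.65-fold higher, Cpm, a membrane carboxypeptidase, 1.63-fold, Il20rb, a receptor subunit for interleukins of the interleukin 20 group, 1.62-fold, and Penk, the enkephalin precursor, 1.56-fold. These were all highest on day 14. Within the retinoid list of 21 genes, Adh1, Adh7 (0.48) and Rdh1 (0.42) were higher, whereas Stra6, the retinol uptake receptor, was 11.42, 10.47 and 9.74, 1.65-fold lower, and the retinal oxidising enzyme Aldh1a3 differed by -0.43; the median was 0.00. In the acute-phase list, Saa3 was 10.54, 10.56 and 8.92, 3.12-fold lower, while Orm1 and Lbp, acute-phase proteins too, were higher by 0.56 and 0.55, and the median of 18 genes was 0.01.

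In the dermis, most contractile genes were lower by small amounts, and Col1a1 and Col3a1 were level. Of 33 genes of myofibroblasts and smooth muscle above the filter, 31 (93.9%) were lower, beside 50.3% of all genes. Their median was -0.18. Acta2, the smooth muscle actin that marks myofibroblasts, stood at 13.01 on day 10, 12.46 on day 12 and 12.13 on day 14, a difference of -0.33, and Cnn1, calponin 1, at 10.04, 8.15 and 7.49, 1.58-fold lower and past the filter only by day 10. Tns1, the single gene of the list that was higher (0.10), had 6 probe sets that ran from -0.08 to 0.71. Col1a1 was 13.48, 13.48 and 13.49 and Col3a1 was 12.96, 12.99 and 12.99, and 50 collagen and fibril genes had a median of -0.04, with 7 higher and 33 lower, or 24 higher and 26 lower with arrays centred on their medians. Their modifying enzymes Plod2 and P4ha1 differed by -0.50 and -0.40. Of the matricellular proteins, which steer cells in the provisional matrix, Thbs1 and Ccn1 differed by -0.61 and -0.56, and the median of 16 such genes was -0.08.

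Growth factor and Wnt genes differed in both directions. Fgf7, the keratinocyte growth factor, stood at 9.53, 9.30 and 8.25, 2.07-fold lower, and Wnt2b at 10.23, 8.96 and 8.28, 1.60-fold lower. Fgf7 was near level until day 12, while Wnt2b was lower on each later day. Inhba and Hgf, growth factors of wound fibroblasts, differed by -0.42 and -0.32. Sfrp4, a secreted Wnt inhibitor, was 7.34, 9.07 and 9.65, 1.50-fold higher. Over 19 dermal condensate and papilla genes, 15 were lower and the median was -0.17, and over 19 Wnt genes 13 were higher and the median was 0.05. Of 44 cell cycle genes, 34 were lower and 3 higher, beside 50.3% lower and 24.9% higher over all genes, with Mki67 at -0.12 and a median of -0.08. With arrays centred or quantile normalized, 29 were lower and 15 higher. Hilpda, a lipid droplet protein induced in hypoxia, was 8.65, 8.95 and 7.83, 2.16-fold lower, and the lactate exporter Slc16a3 and the mitophagy receptor Bnip3, both targets of the hypoxia response, were 1.57-fold and 1.54-fold lower, beside a median of -0.08 for 26 such genes. Apln, the apelin of growing vessels, was 1.53-fold lower, and 28 endothelial genes had a median of -0.08. Scd3, a desaturase of the sebaceous gland, was 7.36, 8.67 and 7.66, 2.01-fold lower and past the filter only by day 12.

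**Figure D5:**
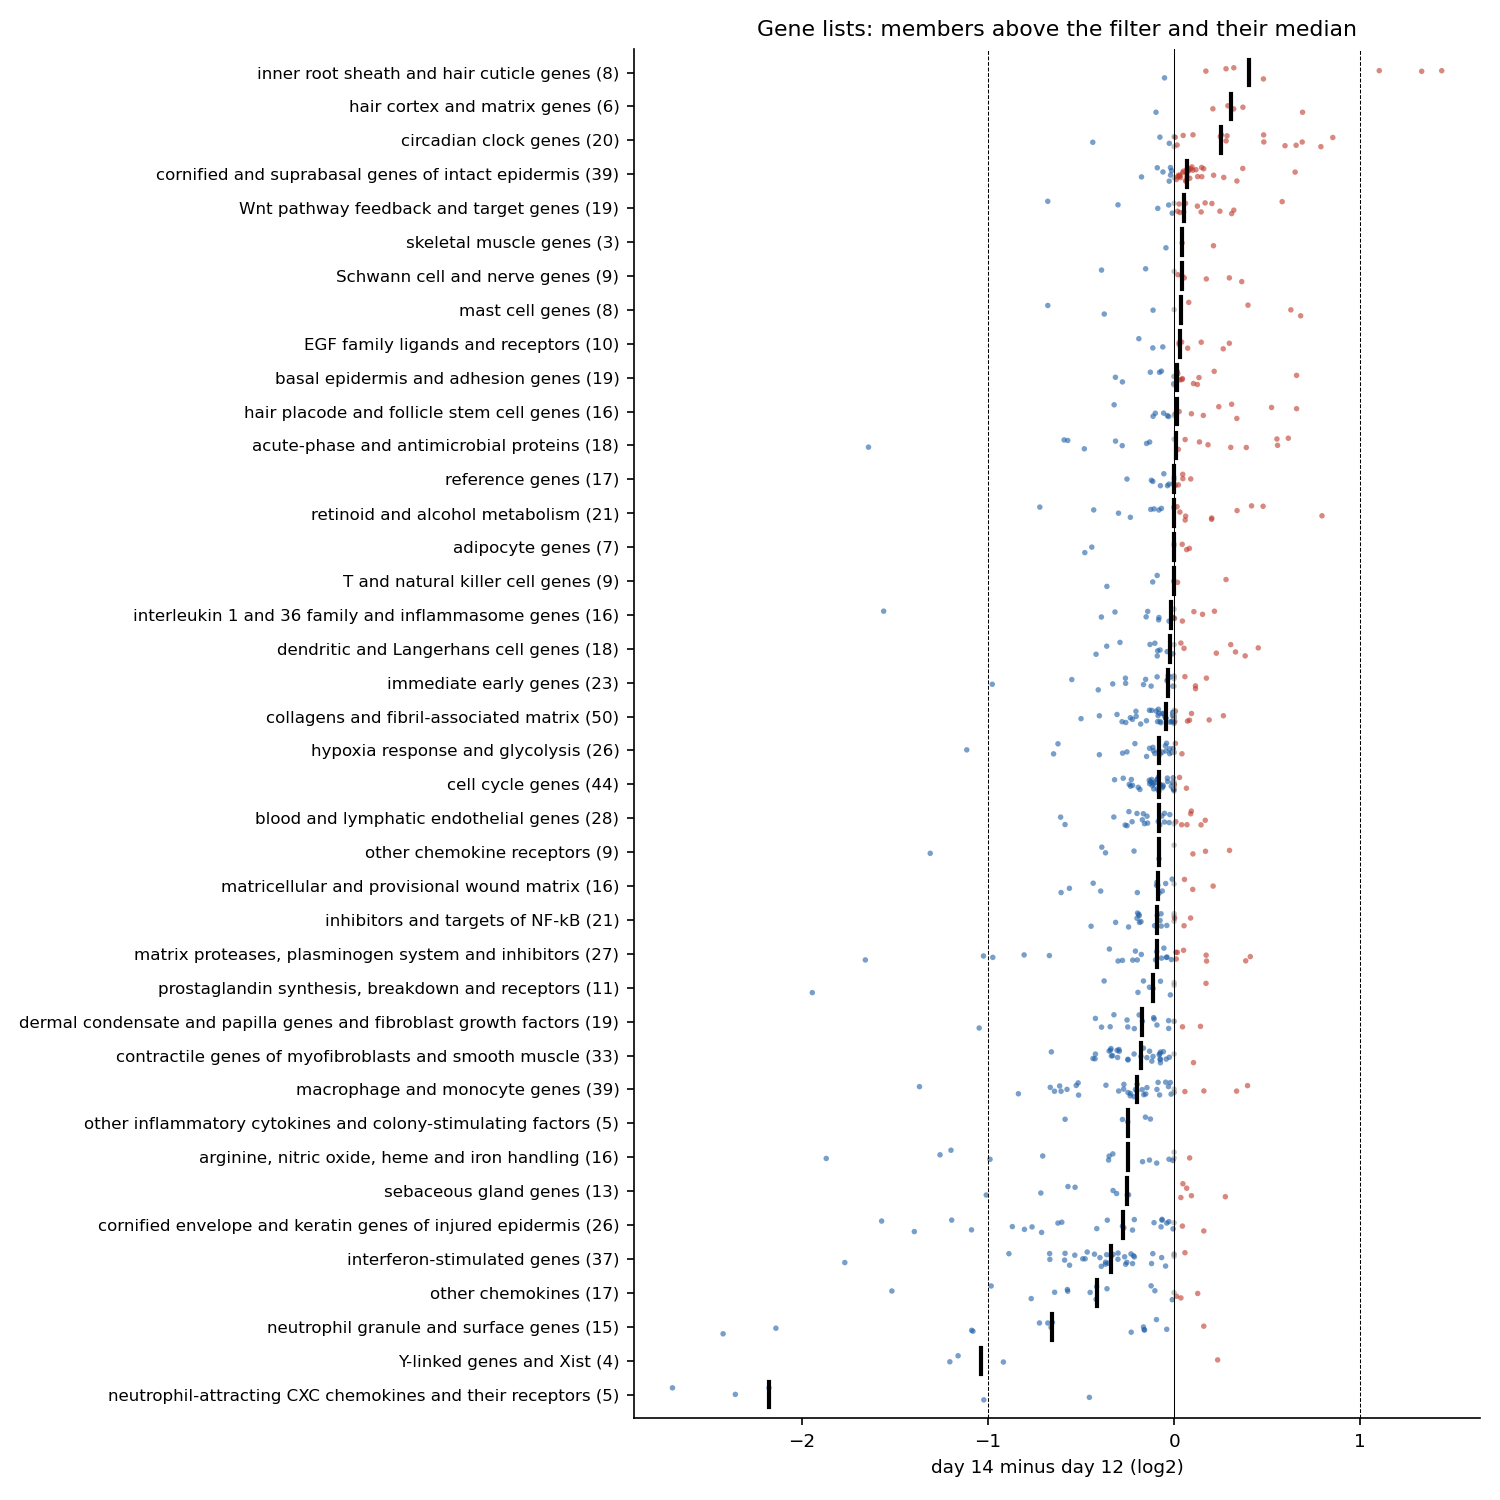
Difference between day 14 and day 12 (log2, horizontal axis) for the members of each gene list above the level filter (number in brackets). Each point is a gene, red higher, blue lower and grey equal, black bars are medians, and dashed lines mark 2-fold. Of the lists shown, the neutrophil-attracting chemokine list has the lowest median (-2.18) and the inner root sheath list the highest (0.40). Both of these lists include genes kept by 1 day alone. With no filter their medians were -0.74 and 0.30, and that of the hair cortex and matrix list was 0.32. The median over all genes above the filter was -0.0012.

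Genes of the Y chromosome also differed between the days. Eif2s3y stood at 5.49 on day 10, 9.59 on day 12 and 8.38 on day 14, 2.31-fold lower on day 14 than on day 12, Uty at 5.491, 9.001 and 7.840, 2.24-fold lower, and Kdm5d at 6.169, 8.417 and 7.499, 1.89-fold lower. Uty and Kdm5d passed the filter only by day 12. Xist, the RNA of the inactive X chromosome, was 12.30, 12.05 and 12.28, higher by 0.23. The labels used here give no sex, and the pools of 3 animals differed in these genes on every day. The part of the animals' sex in any other difference was not tested.

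Several of the lower genes are neighbours in the genome. All 36 genes at least 2-fold lower were found in a gene table of GRCm38.p6, and 16 of them formed 6 groups in which each gene lies within 250 kb of the next. The groups were Cxcl2, Cxcl3, Cxcl5 and Ppbp, then Mmp3, Mmp8 and Mmp10, then Lce3a, Lce3e and Lce3f, and the pairs Clec4d with Clec4e, Trem1 with A530064D06Rik, and Eif2s3y with Uty. No test of this grouping was made. A530064D06Rik (-1.40) and AA467197 (-1.34) were outside the naming rule and were named after their values were seen.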

How the data were processed

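Total RNA of wound tissue, pooled from 3 mice per day, was measured on 3 1-colour arrays, and the groups were taken from the time in the labels. The deposited values are log2 expression per probe set, a scale taken from their range of 4.37 to 14.1. The authors' processing notes name RMA and Partek 6.6 without their roles, per the submitters' processing notes. Genome build and background per probe set are not given in the sources used here, and no scanner output was used. Per the labels' protocols, cRNA from 250 ng of RNA was turned into cDNA and labelled with biotin.

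Values were used without further scaling. The platform annotation gave 1 symbol for 21789 of 35556 probe sets, several for 1621 and did not list 12146. Outside the gene counts were 13767 probe sets. Of those above the filter, 22 were lower by 2-fold or more and 5 higher. Promoter windows and the gene table are RefSeq's for GRCm38.p6, which may not be the array's build, and were matched by symbol. Calculations used Python 3.11.15, pandas 2.3.3, numpy 2.4.6 and matplotlib 3.10.9. The counting was tested on simulated data without replicate noise, which checks the arithmetic alone.

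Members, lists and rules were chosen with earlier results of these data known, so the 44 gene lists are descriptions. Named were the 25 largest decreases and 20 largest increases above the filter (leaving out predicted genes, small RNAs and receptor segments), members of a list that differed by 1.5-fold, otherwise the 4 with the largest difference, every member of lists of 12 or fewer genes, and a fixed set of marker genes. Not every gene so chosen is printed. Alternatives were a 1.5-fold threshold, leaving out the level filter, keeping the top 25% by mean, centred arrays, quantile normalization and taking each gene's brightest probe set.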

Additional observations from a re-analysis of the deposited data

How the results depend on the processing

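The count of genes at least 2-fold higher was 3. With no level filter it was 11, and it was 1 in the top 25% of genes by mean and 32 at 1.5-fold. The count of genes at least 2-fold lower was 36, and it was 11 in the top 25% and 119 at 1.5-fold. Under no level filter, centred arrays, quantile normalization and the brightest probe set it was 39, 32, 33 and 36. Lower genes made up 92.3% of those past 2-fold, and 78.0% with no filter, because 7 of the 8 genes added on the higher side are Krtap genes of low level. The 45 genes named by size kept their sign in all 194 comparisons with an alternative, and moved by at most 0.05. Centring and quantile normalization moved the median of all genes from -0.0012 to 0.02 and 0.03.

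Of 43 lists with a median, 7 changed its sign under an alternative. The Y-linked median of -1.04 became 0 with no filter and 0.23 in the top 25%, where Xist alone remained. In the top 25%, the acute-phase median became -0.23 and the sebaceous median 0.04 (from -0.25). With no filter, the neutrophil-attracting chemokine median was -0.74 and the neutrophil median -0.09. Without replicates no array could be left out. No paired analysis was possible because each day has 1 array. Levels near the array's background have no detection call here, which limits the genes below the filter most.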

Other observations

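Probe sets of microRNA genes were looked at after the values were seen. Of 296 microRNA genes measured, 33 passed the level filter, with 16 higher, 14 lower and 3 equal on day 14 and a median difference of 0. Those at least 1.5-fold lower were Mir145a at 8.58 on day 10, 8.89 on day 12 and 7.75 on day 14, Mir382 at 9.59, 9.38 and 8.54, and Mir377 at 9.14, 8.98 and 8.36. Such probe sets can report the precursor or its host transcript, so the mature microRNA was not measured.

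The Skint genes, which encode immunoglobulin-like proteins of epidermis and thymus, were singled out after their values were seen. The 4 of 7 members above the filter were all higher, with a median of 0.50. Skint4 stood at 6.21, 8.11 and 8.71, Skint9 at 8.28, 11.07 and 11.58, and Skint10 at 7.13, 9.29 and 9.77, so each was already higher on day 12 than on day 10. The 52 ribosomal protein genes above the filter had a median difference of 0.00005, with 26 higher, 13 lower and 13 equal.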
